A study of Mus musculus with 2 samples.

Results

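Head-to-head coding promoters were examined in cerebellar chromatin of newborn mice. A pair was formed by 2 protein-coding genes on chromosomes 1 to 19, the left on the minus and the right on the plus strand, whose 5′-most coding-transcript starts lay 1 to 1000 bp apart in GENCODE M21 (mm10). The rule used annotation alone and no measured value. It found 755 pairs with 1495 genes, or 7.21% of 20722 coding genes on these chromosomes. Among the pairs, 30 shared a gene with another pair, such as Aspa-Spata22 and Aspa-Gm49340, which have the same starts. The starts were a median of 137 bp apart, with 285 pairs up to 100 bp, 159 over 300 bp and 311 between these distances.

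DNase I accessibility, the ease with which the enzyme cuts DNA in nuclei, was measured in 2 cerebellar libraries, made from B6CASTF1/J males at 4 days of age. These mice are first-generation hybrids of C57BL/6J and CAST/EiJ. The label of each library names 3 males, and the libraries are numbered as biological replicates 1 and 2 of 1 group, with no treatment. The labels of replicate 1 name a NovaSeq and a HiSeq instrument. With 1 group of 2 libraries there was no test between conditions, and pairs are not replicates, so results are given as counts, shares and medians in each library.

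The deposited lists held 60053 peaks in replicate 1 and 127625 in replicate 2 on these chromosomes. The depth in reads is unknown. Of 11 cerebellar marker genes, 7 were open at their promoter in each library, among them Atoh1, Neurod1, Zic1 and En2, transcription factors of the developing cerebellum. At the promoter examined, Pax6, Barhl1, Skor2 and Pcp2 had no peak in either library. Other starts of the marker genes are not reported here. Promoters of 4 microglial, 3 liver and 3 muscle markers had no peak in either library. Of 4 astrocyte and 4 oligodendrocyte-lineage markers, 2 each were open in both libraries, and 2 of 3 endothelial markers were open in replicate 2 alone. In whole tissue, a higher value in all cells cannot be told apart from an open promoter in more of the cells.

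A bidirectional promoter is a short stretch of DNA from which transcription starts outward in both directions, into a different gene on each side. In mammals such stretches usually lie in CpG islands, lack a TATA box, and serve many genes for DNA repair, mitochondria and RNA processing that most cells use. Factors of the ETS family, NF-Y (which binds the CCAAT box) and NRF1 are known to bind promoters of this kind.

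The stretch between the starts is printed for 6 pairs, 5′ to 3′ on the plus strand of GRCm38 (mm10), so the minus gene begins at the base to the left and the plus gene at the base to the right. Capitals mark matches to the motifs searched, which are spelled out with the motif results. The first 3 are the pairs among the 4 highest ranked stretches of 60 to 300 bp that overlap no exon of a transcript annotated with a coding region or nonsense-mediated decay. The 4th was chosen after the values were seen, as the highest ranked pair with an NRF1 match inside footprints of both libraries. The last 2 are the closest pairs of this length with no peak in either library. No exon of any annotated transcript overlaps the stretches of Fbh1-Ankrd16, Gtf3c1-D430042O09Rik and the last 2. Those of Rer1-Morn1 and Slc39a7-Rxrb are touched by an exon of a non-coding transcript of the minus gene.
Fbh1-Ankrd16 (chr2:11777583-11777875): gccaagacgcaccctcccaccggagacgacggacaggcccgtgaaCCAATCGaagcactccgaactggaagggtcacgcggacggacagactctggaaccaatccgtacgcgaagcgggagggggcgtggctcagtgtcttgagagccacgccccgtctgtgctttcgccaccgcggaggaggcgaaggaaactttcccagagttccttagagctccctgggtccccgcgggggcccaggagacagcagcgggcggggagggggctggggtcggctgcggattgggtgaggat
Gtf3c1-D430042O09Rik (chr7:125707781-125707887): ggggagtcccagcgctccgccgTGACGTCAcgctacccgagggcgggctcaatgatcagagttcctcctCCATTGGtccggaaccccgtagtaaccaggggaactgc
Rer1-Morn1 (chr4:155086374-155086576): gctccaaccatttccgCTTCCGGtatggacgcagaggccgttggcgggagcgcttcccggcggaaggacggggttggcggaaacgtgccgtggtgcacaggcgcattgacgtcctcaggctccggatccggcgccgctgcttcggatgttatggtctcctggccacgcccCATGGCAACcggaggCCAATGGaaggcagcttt
Slc39a7-Rxrb (chr17:34031663-34031811): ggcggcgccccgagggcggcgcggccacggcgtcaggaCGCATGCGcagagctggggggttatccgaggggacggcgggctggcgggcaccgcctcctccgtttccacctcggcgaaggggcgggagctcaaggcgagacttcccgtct
Slc30a3-Dnajc5g (chr5:31108238-31108306): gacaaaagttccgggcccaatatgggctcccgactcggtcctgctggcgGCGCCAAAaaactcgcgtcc
Il11-Tmem190 (chr7:4782860-4782936): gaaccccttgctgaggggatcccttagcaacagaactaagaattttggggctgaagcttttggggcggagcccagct

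Fbh1-Ankrd16, with a DNA helicase gene on the left, held a CCAAT box at base 46, inside a footprint in both libraries. Gtf3c1-D430042O09Rik, with the gene of a TFIIIC subunit, held a cAMP response element (CRE) at base 23, also inside a footprint in both. Its CCAAT box at base 70 was inside no footprint of either library. Rer1-Morn1, with the gene of a Golgi retention receptor, held an ETS match at base 17, an RFX match at 171 and a CCAAT box at 186. Its ETS match was inside a footprint of replicate 2 alone, and the other 2 were inside footprints of both libraries. Slc39a7-Rxrb, with a zinc transporter and a retinoid X receptor, held the NRF1 match at base 39. Slc30a3-Dnajc5g held 1 E2F match at base 50, and Il11-Tmem190 held no match to any motif searched. Neither of these last 2 had a footprint in either library.

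Nearly all pairs were open. A pair was called open in a library when at least 1 deposited peak overlapped the stretch between the starts widened by 250 bp on each side. By this rule 712 pairs (94.3%) were open in replicate 1 and 720 (95.4%) in replicate 2, an SD of 0.749 percentage points over the 2 libraries. In both libraries 710 pairs (94.0%) were open, 10 were open in replicate 2 alone, 2 in replicate 1 alone, and 33 in neither.

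Other coding promoters were open less often, and fewer of them were rich in CpG. Of 18477 coding starts in no pair, 49.2% had a peak in both libraries, 50.2% in replicate 1 and 56.3% in replicate 2. The CpG ratio, which is the number of CG steps over that given by the C and G content, had a median of 0.824 in pairs and 0.523 in the others. The others were therefore standardised, by averaging their share over classes of CpG ratio and of window width in the proportions of the pairs. After that they were open in 86.3% in both libraries, 87.1% in replicate 1 and 91.3% in replicate 2. The pairs exceeded them by 7.78 percentage points in both libraries, 7.20 in replicate 1 and 4.04 in replicate 2. The differences of the 2 libraries had an SD of 2.23 points, and each was larger than that. The standardisation did not adjust for the number of starts. A pair's region was built on 2 starts and a window of the others on 1.

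Pairs followed the CpG ratio as other promoters did, but at a higher level in the middle classes. In the 4 lowest of 10 classes, 1 of 20 pairs was open in both libraries (5.00%), beside 7.12% of the others. That pair was Kirrel2-Nphs1, 2 genes of the kidney filtration slit, at 1.18 and 1.10. In classes 5 and 6, 70 of 86 pairs (81.4%) were open, beside 64.9% of the others. In class 7 the counts were 109 of 113 (96.5%) beside 84.8%, and in class 8 they were 141 of 145 (97.2%) beside 89.5%. In class 9 all 184 pairs were open, beside 93.4% of the others, and in class 10 it was 205 of 207 (99.0%) beside 95.0%.

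**Figure D1:**
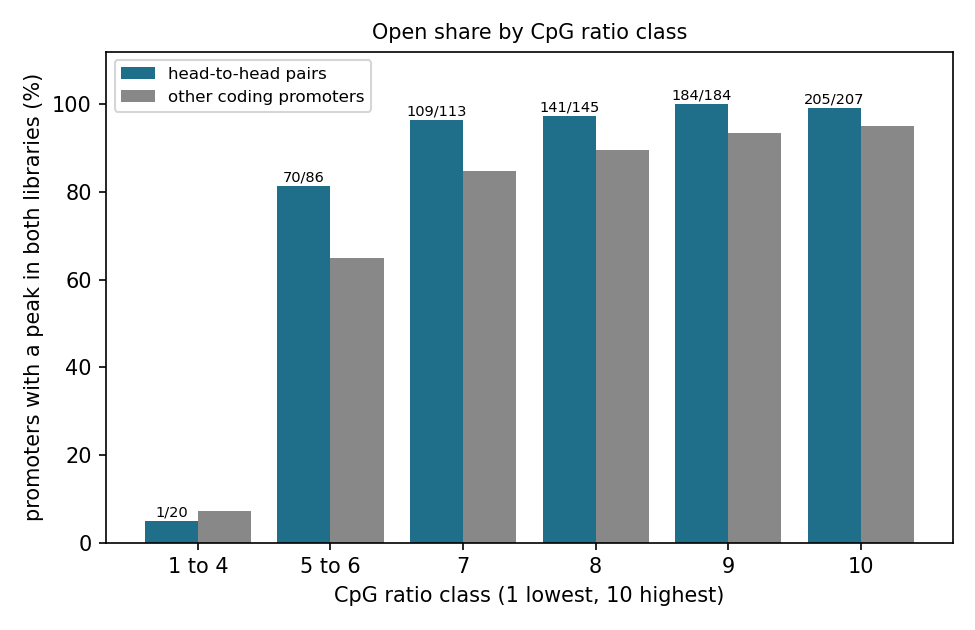
Bars give the percentage of regions with a peak in both libraries by class of CpG ratio, for head-to-head pairs (blue, with counts) and other coding promoters (grey). The gap was widest in classes 5 and 6, at 81.4% against 64.9%, and both groups were at or under 7.12% in classes 1 to 4.

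Open pairs also carried stronger peaks. The value of a pair was the authors' normalised signal of its strongest peak, which is set beside other values of the same library. Over the 710 pairs open in both libraries it ran from 0.452 to 9.21 in replicate 1, with a median of 2.96. In replicate 2 it ran from 0.293 to 21.05, with a median of 6.92. These medians were above 92.2% and 97.0% of all peaks of the libraries. Standardised other promoters had medians of 2.35 and 4.83, so the pairs were 1.26-fold and 1.43-fold higher. Both ratios were above 1, and they differed from each other by less than they differed from 1. The strongest peak of a pair was taken around 2 starts and that of an other promoter around 1.

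The libraries ranked the pairs alike but on different scales. Across the 710 pairs Pearson's r of the log2 values was 0.853 and Spearman's rho 0.829, with CpG content and the authors' processing shared by both libraries. Replicate 2 was higher at 696 pairs and lower at 14, with a median log2 difference of 1.21 (SD 0.49 over pairs), beside 1.02 at standardised others. Values at least 2-fold higher in replicate 2 were found at 484 pairs (68.2%), against 48.8% of other promoters open in both libraries. For these 2-fold shares the others were not standardised for CpG ratio or window width. Values at least 2-fold lower were found at 2 pairs (0.282%), against 0.517% of the others. Those 2 were Kctd19-Lrrc36 (1.07 and 0.446) and Sirt1-Dnajc12 (0.884 and 0.373), the latter with an NAD-dependent deacetylase gene. The lowest value of either library was that of Col4a4-Col4a3, at 0.452 and 0.293. This pair encodes basement membrane collagen chains and is a classic shared promoter.

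**Figure D2:**
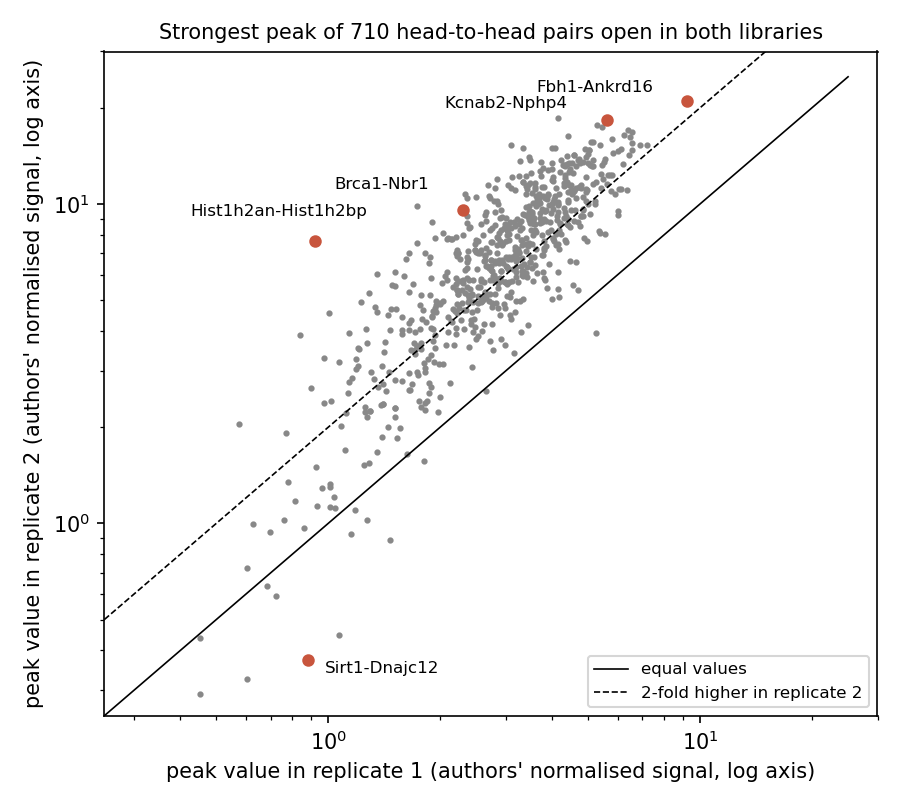
Each point is 1 of the 710 pairs open in both libraries, with the value of its strongest peak in replicate 1 and replicate 2 on log axes. 696 points lie above the line of equal values, Fbh1-Ankrd16 is highest in both libraries, and Hist1h2an-Hist1h2bp lies farthest above the line.

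The pairs of highest mean rank over the libraries combined genes of unlike roles. Fbh1-Ankrd16 (chr2:11777582-11777876) led both libraries, at 9.21 and 21.05. Gtf3c1-D430042O09Rik (chr7:125707780-125707888) followed at 6.57 and 16.8. Dcaf6-Mpc2, with a ubiquitin ligase receptor and a subunit of the mitochondrial pyruvate carrier, had 6.399 and 16.98. This pair held 12 footprints in replicate 1 and 19 in replicate 2. Dnajb4-Fubp1, with a heat shock co-chaperone and a single-strand DNA binding protein, had 6.496 and 16.2. Deaf1-Tmem80, with a transcription factor, had 6.24 and 16.4. Rer1-Morn1 had 6.54 and 15.5. Sugct-Mplkip had 6.90 and 15.2, and Kcnab2-Nphp4, with a potassium channel beta subunit and a protein of the ciliary transition zone, had 5.63 and 18.3. The strongest peak of Kcnab2-Nphp4 lay inside Kcnab2 in both libraries, partly outside the region, and reached neither start. Peaks covered 44.8% of its stretch between the starts in replicate 1 and 0% in replicate 2. Cdc27-Myl4, with a subunit of the anaphase-promoting complex and a muscle myosin light chain, had 6.57 and 14.7. Each of these pairs lay well above the upper quartile of its library, which was 3.88 in replicate 1 and 9.61 in replicate 2.

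Pairs of DNA repair genes ranged from high to low values. Atm-Npat, with the kinase that signals DNA breaks and an activator of histone genes, had 4.99 and 14.3. Mcm4-Prkdc, with a replicative helicase subunit and a kinase of end joining, had 3.05 and 11.5. Brca1-Nbr1, with a recombination gene and an autophagy receptor, had 2.31 and 9.57, a log2 difference of 2.05 that was larger than the median of 1.21. Zfyve26-Rad51b, with a recombination gene, was lower at 1.48 and 5.58. Pinlyp-Xrcc1, with a single-strand break repair gene, was the 1 pair of the DNA replication and repair list not open in both libraries, with 0.466 in replicate 2 alone. At another of its coding starts, outside the pair, Xrcc1 had a peak in both libraries, at 5.23 in replicate 1 and 13.02 in replicate 2. Mrps12-Sars2, which both encode parts of mitochondrial translation, had 2.80 and 6.54, close to the median pair.

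Pairs of housekeeping genes were nearly all open, as were 94.0% of all pairs, and the share of such genes in pairs varied by list. Lists were made from gene symbols. The share of a list's pairs open in both libraries reads against that 94.0%. The share of its genes open outside pairs reads against 49.2% of other promoters. Each share of list genes in pairs reads against 7.21% of all genes. Of 140 DNA replication and repair genes, 24.3% were in pairs, and 33 of their 34 pairs were open in both libraries, beside 93.3% of the list's genes outside pairs. Mitochondrial genes had 21.7% in pairs and 48 of 49 pairs open, beside 91.0%. RNA processing and transcription genes had 20.5% in pairs, and 64 of 64 pairs were open, beside 89.1%, with median values of 3.38 and 8.56. Against the medians of all pairs, 2.96 and 6.92, mitochondrial pairs were lower at 2.91 and 6.42, and membrane traffic pairs at 2.64 and 6.59. DNA replication and repair pairs had 2.86 and 7.50. The share of genes in pairs was lower for cell cycle and mitosis (15.7%), cytosolic translation (13.97%), ubiquitin and proteasome (11.4%) and membrane traffic (10.5%). Cytosolic translation had 25 of 26 pairs open (88.7% outside pairs), cell cycle and mitosis 24 of 25 (90.2%), and membrane traffic 28 of 29 (86.0%). Among the leading pairs of these lists were Med22-Rpl7a (5.79 and 15.9), Klc4-Mrpl2 (5.399 and 12.4) and Cntrob-Trappc1 (4.78 and 11.5).

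Lists that are less often open elsewhere showed wider gaps, which were not matched for CpG ratio. All 21 cilium pairs were open, beside 76.9% of cilium genes outside pairs, and all 23 zinc finger pairs, beside 76.8%. The zinc finger pair of highest rank was Zfp277-Dock4, at 4.74 and 13.4. Of 36 ubiquitin and proteasome pairs 34 were open, beside 74.5%, led by Rnf5-Agpat1 at 4.30 and 13.3. Synapse and ion channel genes were rarely in pairs, with 1.45% of 275 genes, but all 4 of their pairs were open, beside 50.6% outside pairs. Nlgn2-Tmem256, with an adhesion protein of inhibitory synapses, had 2.76 and 8.38. Cbln3-Khnyn, whose minus gene encodes a synaptic organiser of cerebellar granule cells, was weaker at 1.44 and 2.00.

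Immune and extracellular matrix genes were the other list with few pairs, and fewer of those were open. Of 10 such pairs 6 were open in both libraries, beside 18.6% of the list's genes outside pairs, with medians of 1.31 and 2.51. The leading pair was Brd2-H2-DMa, at 3.40 and 9.80, in which Brd2 encodes a chromatin reader that many tissues use. Another was taken in by its symbol alone, Cd3eap-Ppp1r13l, in which Cd3eap encodes an RNA polymerase I subunit. In the same way Cdc40, counted under cell cycle, encodes a splicing factor. Smyd1-Cd8b1, Il11-Tmem190 and Ifit1bl2-Ifit1 had no peak in either library. The 451 pairs in none of the lists had 420 open (93.1%), and the 304 in 1 or more lists had 290 (95.4%).

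Histone pairs were among the weaker ones. Of 75 histone genes 27 were in pairs, and 10 of their 14 pairs were open in both libraries, beside 79.2% of histone genes outside pairs. Their medians of 0.990 and 3.91 were below those of all pairs. Hist1h2an-Hist1h2bp, an H2A and H2B pair, had 0.922 in replicate 1 and 7.66 in replicate 2, and its log2 difference of 3.05 was the largest of all pairs open in both. Histone genes occur in near-identical copies, so short reads may not be placed uniquely and these values are uncertain. Of the 36-base windows in the 12 histone pair regions on chromosome 13, a median of 44.6% recurred in the histone clusters there. In Hist1h2bq-Hist1h2ao and Hist1h2ap-Hist1h2br, which had no peak, 100% of the windows recurred. In Hist1h2ba-Hist1h2aa, a testis-type pair that also had no peak, 1.68% did. The part of these copies in the result was not tested.

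Most of the 45 pairs not open in both libraries were poor in CpG. Their median ratio was 0.404, beside 0.835 in the 710 open pairs, and 30 of them were in CpG classes 1 to 5. The other 15 were in classes 6 to 10 and included Hist1h2bq-Hist1h2ao (0.978), Nr2e1-Ostm1 (0.795) and Tradd-Fbxl8 (0.766). The 6 closest pairs with no peak were Best1-Rab3il1, Tradd-Fbxl8, Rnf151-Rps2, Slc30a3-Dnajc5g, Il11-Tmem190 and Ccnt1-4930415O20Rik, with starts 36 to 81 bp apart. Among the 33 pairs with no peak, 7 had 1 gene that was open in both libraries at another of its coding starts, outside the pair. Rps2, a ribosomal protein gene, had values of 3.39 and 10.98 there, Ccnt1, a cyclin of transcription elongation, had 5.88 and 14.8, and Dgcr2 had 5.52 and 15.4. For these genes the start nearest the opposite gene was not the one with the peak. Surf4-Stkld1 had no peak, but intervals under the authors' false discovery rate of 0.05 covered 53.2% of its region in replicate 1 and 91.1% in replicate 2.

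Few pairs were open in 1 library alone, and most of these were weak. In replicate 2 alone the highest were Nr2e1-Ostm1 (1.81), Obsl1-Inha (1.65) and Hist1h2bh-Hist1h3f (1.52). Nr2e1 encodes a nuclear receptor of neural stem cells. At Nr2e1-Ostm1 replicate 2 had 6 footprints and replicate 1 had 0. In replicate 1 alone there were Ndufa5-Asb15 (1.52) and Stap2-Mpnd (0.323). The Ndufa5-Asb15 peak covered 0% of the stretch between the starts. It spanned another coding start of Ndufa5, a gene of respiratory complex I, 443 bp into the gene. With peaks touching the pair's region left out, that start had 0.710 in replicate 1 and 4.38 in replicate 2. Intervals under the authors' false discovery rate limit covered 16.6% of the pair's region in replicate 1 and 25.9% in replicate 2. The values of the 3 leading pairs of replicate 2 were all under its lower quartile of 4.69 among pairs open in both.

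Peaks covered most of the stretch between the starts. The middle of the strongest peak lay between the starts in 64.0% of open pairs in replicate 1 and 69.7% in replicate 2. For standardised other promoters a middle counted at any distance upstream of the start, in 66.6% and 73.1%. Their shares had no upper bound on that distance, so they cannot be ranked against those of pairs. In pairs the median distance of the peak's middle from the middle of the stretch, in either direction, was 44.5 and 36.75 bp. In the widest of 4 spacing classes it was 162.5 and 157 bp. Peaks covered a mean of 73.8% and 78.3% of the stretch, beside 58.1% and 63.0% of the same stretch upstream of other starts. The strongest peaks of both libraries overlapped at 688 of 710 pairs (96.9%), with their middles a median of 20 bp apart, beside 96.7% at the others.

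The wider the stretch, the fewer pairs had 1 peak over both starts. The strongest peaks had median widths of 200 to 240 bp over the spacing classes of both libraries. A peak of such a width cannot reach both starts in the widest class, and close starts leave little room for 2 peaks. These shares are therefore in large part set by the spacing itself. Pairs were divided into 4 classes of equal size by spacing. In the closest class, 1 to 72 bp, the strongest peak covered both starts in 88.7% and 92.0% of open pairs. In the widest, 265 to 987 bp, it did so in 6.25% and 5.03%. There each start had a peak of its own in 49 of 189 pairs in replicate 1 and 65 in replicate 2, against 0 in both classes up to 137 bp. Regions with 2 or more peaks rose from 18.8% to 55.6% of pairs in replicate 1 and from 17.8% to 59.8% in replicate 2. In the same windows at other promoters the shares went from 19.7% to 24.9% and from 22.9% to 34.7%. In the widest class the strongest peak was on the same side of the middle in both libraries at 153 of 176 pairs.

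**Figure D3:**
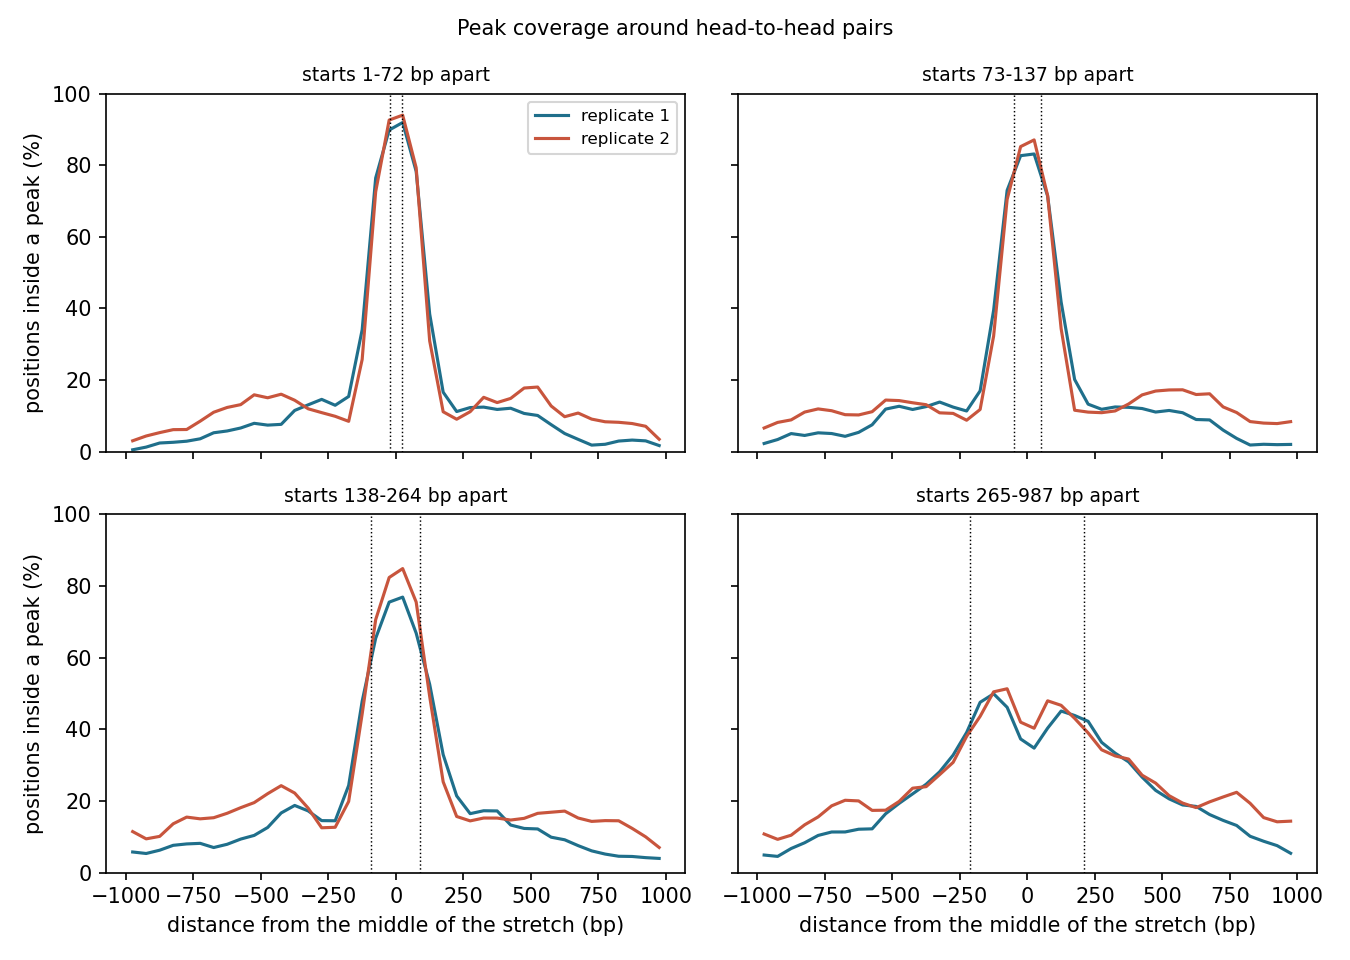
Lines give the percentage of positions inside a peak, in 50 bp steps from the middle of the stretch, with the minus gene to the left, for replicate 1 (blue) and replicate 2 (red). Dotted lines mark the starts at the median spacing of each class. Coverage had 1 summit above 75% in the 3 closer classes and 2 summits, with a dip between them, in the class at 265 to 987 bp.

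Wider spacing also went with stronger peaks relative to other promoters. A pair's value was its strongest peak around 2 starts, and that of an other promoter around 1. Regions with 2 or more peaks also became more frequent with spacing in pairs. The part of this in the ratios was not tested. From the closest to the widest class the value was 1.12, 1.27, 1.33 and 1.35 times that of standardised others in replicate 1. In replicate 2 it was 1.14, 1.36, 1.61 and 1.73 times. The share open in both libraries had no such order, at 97.4%, 92.1%, 93.5% and 93.1%, beside 88.1%, 84.9%, 87.4% and 84.7% of others. Median CpG ratios of the pairs fell from 0.857 to 0.771 over the classes, and the others were standardised for CpG ratio within each class. The closest pair, Bag4-Lsm1, with starts 1 bp apart, had 4.21 and 8.68. Next were Dhrs1-Nop9 (1.71 and 3.50) and Slc7a6os-Prmt7 (2.85 and 7.03), both with starts 3 bp apart.

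**Figure D4:**
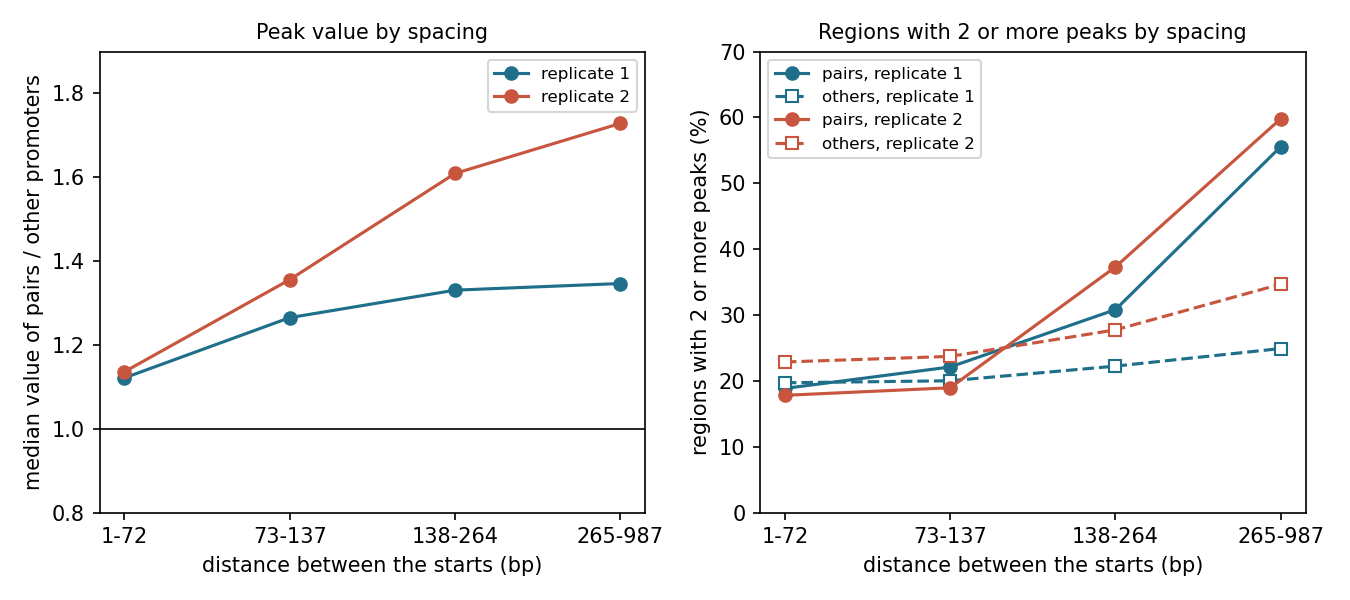
Left, the median value of open pairs divided by that of standardised other promoters; right, the percentage of regions with 2 or more peaks, for pairs (filled) and others (open symbols), by distance between the starts. The ratio reached 1.35 in replicate 1 and 1.73 in replicate 2, and pairs passed the others in number of peaks only in the 2 wider classes in both libraries.

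Pairs just inside and just outside the largest spacing allowed had overlapping values. The farthest pairs were Btf3l4-Txndc12 at 987 bp (2.44 and 5.77), Asphd1-Sez6l2 at 981 bp (2.39 and 3.57) and Zfyve26-Rad51b at 978 bp (1.48 and 5.58). Just past the limit were 5330417C22Rik-1700013F07Rik at 1005 bp (1.65 and 4.51), Ddias-Prcp at 1005 bp (3.59 and 6.87) and Sgsm2-Tsr1 at 1018 bp (2.64 and 4.51). All 12 pairs in the last 100 bp before the limit and 9 of 11 in the first 100 bp past it were open in both libraries. Of 382 head-to-head pairs whose starts overlap, which are not members, 352 (92.1%) were open, with medians of 2.63 and 6.04.

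Inside the genes, peaks were rarer at pairs than at other promoters. At 300 bp into the gene, 14.97% of minus genes and 14.3% of plus genes lay in a peak in replicate 1, beside 22.7% of standardised others. In replicate 2 these were 15.2% and 15.6%, beside 26.0%. With genes whose coding starts all lie within 500 bp of each other (339 pairs), they were 12.1% and 11.5% beside 21.4% in replicate 1, and 11.2% and 12.1% beside 24.5% in replicate 2. At the start itself the order was the other way, with 73.5% and 74.0% beside 69.6% in replicate 1, and 74.4% and 76.4% beside 73.7% in replicate 2.

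Footprints, short protected sites called by the authors inside accessible DNA, were more frequent in pairs. A region held a mean of 3.78 ± 2.16 footprints in replicate 1 and 6.34 ± 3.29 in replicate 2 (SD over 755 pairs). Standardised others had 2.92 and 4.81, so pairs had 1.29 and 1.32 times as many. These counts too were taken around 2 starts in a pair and 1 in an other promoter. Among regions open in both libraries the means were 4.02 beside 3.36 and 6.71 beside 5.43. Between the starts there were 9.58 and 14.1 footprints per kb, against 3.60 and 6.85 per kb in the flanks. The same stretch upstream of other starts had 6.87 and 10.6 per kb. The most footprints of replicate 2 were at Hnrnpa2b1-Cbx3, with an RNA binding protein and a heterochromatin protein, which had 9 in replicate 1 and 20 in replicate 2.

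The sequences of pairs were searched for 14 short motifs on both strands, in the stretch with its 250 bp flanks. A match is a description of the letters, and matches of different motifs could overlap. The ETS core CCGGAAG differed most. It was in 39.3% of pairs, beside 23.2% of standardised others and 13.4% of all other promoter windows. The CCAAT box, spelled CCAATCA or with CG, GA or GG as its last letters, was in 39.6% beside 29.1%, and in 24.7% of all windows. Between the starts alone the CCAAT box differed most, with 29.0% beside 15.8%, and ETS had 16.4% beside 9.30%. A first count with the letters CCAATNA gave 31.5% beside 23.2%, and the 4 spellings were chosen after that count.

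Rarer motifs of housekeeping promoters were also in more of the pairs. YY1 (AANATGGCG) was in 13.5% beside 8.66% of standardised others (4.39% of all windows), NRF1 (CGCATGCG) in 7.81% beside 4.97% (2.53%), and ZNF143 (ACTACAANT) in 6.36% beside 3.19% (2.71%). E2F (TTTNGCGC) was in 6.75% beside 4.69% (2.46%), RFX (GTTGCCATG) in 2.38% beside 0.945% (0.898%), and CRE (TGACGTCA) in 5.83% beside 4.46% (2.65%). The E-box CACGTG was in 17.4% beside 17.3% (11.4%), the bHLH E-box CAGATGG in 6.89% beside 7.37% (9.54%), and AP-1 (TGANTCA) in 8.21% beside 8.87% (12%). Lower in pairs were CTCF (AGGGGGCGC), in 3.31% beside 4.59% (2.41%), and the GC box (GGGGCGGGG), in 30.1% beside 33.3% (18.5%). Between the starts alone some of these differences were near 0 or turned. The GC box had 18.3% beside 18.4% there and YY1 1.32% beside 1.20%, and 2 motifs were higher in pairs, AP-1 with 3.31% beside 2.51% and the bHLH E-box with 2.91% beside 1.96%. In the region with its flanks, TATAAA was in 9.01% beside 15.2% (21.9%), but between the starts the shares were 4.11% beside 5.01%. At 45 to 15 bp before a start, on the gene's strand, TATAAA was found in 6 pairs, 3 of them histone pairs. That is 0.397% of starts, beside 1.03% of standardised and 3.00% of all other starts.

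**Figure D5:**
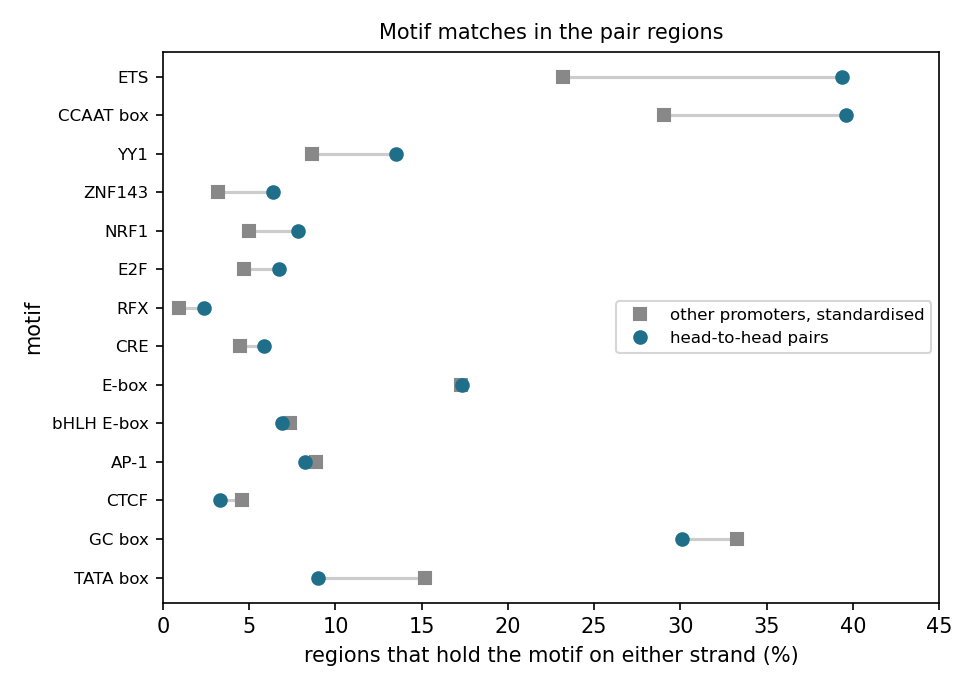
Circles give the percentage of head-to-head pair regions that hold each motif on either strand and squares that of other promoters standardised for CpG ratio and width. ETS (39.3% against 23.2%) and the CCAAT box (39.6% against 29.1%) were farthest above the others, and the TATA box (9.01% against 15.2%) farthest below.

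Motifs differed in how often they lay inside a footprint. A match counted when all its bases were inside a footprint widened by 5 bp. Of the 59 pairs with NRF1, 67.8% had it in a footprint in replicate 1 and 88.1% in replicate 2, beside 63.2% and 79.6% of standardised others with NRF1. Of the 44 with CRE the shares were 75% and 84.1%, beside 59.0% and 69.6%. The GC box had 57.3% and 76.2%, beside 39.6% and 62.4%. ETS had 22.9% and 39.7%, beside 20.6% and 34.3%, and the CCAAT box 24.4% and 45.8%, beside 22.9% and 37.7%. YY1 was lower in pairs in replicate 1, at 11.8% beside 16.1%, and had 40.2% beside 39.3% in replicate 2. Pairs with a CCAAT box had median values of 3.28 and 8.31, above the 2.79 and 6.03 of pairs without it. Pairs with CRE (3.65 and 8.53), NRF1 (3.49 and 8.32), RFX (3.36 and 8.66) or YY1 (3.21 and 8.47) were also above pairs without them. So were pairs with ZNF143 or the bHLH E-box. Pairs with AP-1 or the TATA box were lower in both libraries. Those with E2F, the E-box, CTCF or the GC box were higher in 1 library alone. These medians were not matched for CpG ratio or spacing. For ETS the medians with and without were 2.92 and 2.97 in replicate 1, and 6.90 and 7.005 in replicate 2, so they were nearly alike. All 59 pairs with NRF1, 48 with ZNF143 and 25 with CTCF were open in both libraries, beside 94.0% of all pairs. With ETS it was 99.3% and with the GC box 98.7%, and the lowest share was 88.2%, with the TATA box. These shares were not matched for CpG ratio.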

How the data were processed

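DNase-seq of 2 cerebellum libraries was analysed from the files the authors deposited for each library alone. Peaks are in narrowPeak format, and the signal of a peak was normalised for depth by the authors, by a factor they do not state. Short intervals of the genome were deposited with the false discovery rate (q-value) of their DNase I cut rate, where it was under 0.05. The footprint files deposited carry a score that is the same on every line, so positions alone were used. The assembly is mm10 per the labels and the deposited description files. The sources used here name no aligner, caller or version.

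Starts were taken from GENCODE M21 and sequence from the GRCm38.p6 reference, whose bases matched the first 20 bases of a transcript at 1508 of 1510 starts of pairs. The reference is C57BL/6J, so CAST/EiJ alleles are not seen in it. Regions were the stretch with a flank of 250 bp, and a peak of the less strict list counted from 1 bp of overlap. Other promoters were coding starts in no pair and with no overlapping opposite coding start. Each was given windows as wide as 4 spacing classes, and their values were weighted to the pairs' mix of 10 CpG classes within each spacing class (Python 3.11.15, numpy 2.4.6, pandas 2.3.3). The procedure was tested on simulated peaks. The members and lists were chosen with earlier results of these data known.

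Named pairs are the 10 of highest mean percentile rank over the libraries, the 6 closest with no peak, up to 3 open in 1 library alone for each library, the leader of each gene list, the closest and farthest pairs, the neighbours past 1000 bp and pairs of listed genes. The pairs Kirrel2-Nphs1, Kctd19-Lrrc36, Sirt1-Dnajc12, Col4a4-Col4a3, Surf4-Stkld1, Pinlyp-Xrcc1, Slc39a7-Rxrb, Hnrnpa2b1-Cbx3, the synapse pairs, Cd3eap-Ppp1r13l, Cdc40 and the histone pairs were added after their values were seen. Some pairs that the rule names are not reported here. Alternatives were the stricter list, equal numbers of peaks, other overlaps, flanks, spacings, classes and comparison promoters, and each library alone. The stretch of Deaf1-Tmem80 was not printed because it overlaps an exon of a nonsense-mediated decay transcript. Whether the 2 libraries came from separate litters is not stated, so the spread between them may be technical.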

Additional observations from a re-analysis of the deposited data

How the results depend on the processing

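The difference between pairs and other promoters kept its sign for the open share, the value, the footprints, ETS, the CCAAT box and the TATA box under every alternative run. The share of pairs open in both libraries (94.0%) was 90.5% with the stricter peak list, 93.1% with equal numbers of peaks, 93.0% when the middle of a peak had to lie in the region, and 89.4% with no flank. Its difference from other promoters (7.78 percentage points) was 11.7 with the stricter list, 18.8 with no flank and 44.8 with no matching on CpG ratio. Without matching, the value ratios were 1.43 in replicate 1 and 1.64 in replicate 2, and the footprint ratio, 1.31 over both libraries, was 2.45. That ratio was 1.56 with no flank and 1.25 with a flank of 500 bp. With no flank the differences were 7.12 points for ETS and -0.91 for the TATA box, and without matching 25.5 and -16.9, against 16.2 and -6.21. For the CCAAT box they stayed between 8.37 and 13.2 points. With 1 library alone the open share was 94.3% to 95.4%, its difference 4.04 to 7.20 points, the value ratios 1.27 and 1.49, and the footprint ratio 1.29 to 1.32. With genes whose starts lie within 500 bp, an alternative chosen after seeing the data, the difference was 6.49 points and the value ratios 1.21 and 1.37. With others that have no annotated opposite start nearby it was 7.99 points. The cause of these shifts was not tested. No paired analysis was possible because there is 1 group. Read depth is unknown, so a pair without a peak was not detected as open at this depth, and depth may differ between the libraries.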
